A study of Mus musculus with 2 samples.

Results

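The miRNA genes of the leukocyte lineages miR-142a, miR-150, miR-223 and miR-342, were examined in the jejunal tunica muscularis of mice with and without Dnmt1 in smooth muscle. The members were taken by name as every mature product of these genes and of miR-142b, by a rule that uses names only. The table held 8 such products among 1080 mature miRNAs and 1147 entries in all. Both arms were listed for each of miR-142a, miR-150, miR-223 and miR-342, while miR-142b had no entry.

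Small RNA was sequenced at postnatal day 15 from 1 Dnmt1-WT and 1 Dnmt1-KO library on the C57BL/6 background. Dnmt1-KO mice carried the smMHC Cre-eGFP transgene together with homozygous floxed Dnmt1, so that the deletion is restricted to cells that use the Myh11 promoter. Dnmt1-WT littermates carried the same Cre-eGFP transgene, and hence every group expressed Cre. Animals of both sexes were used for each genotype, and whether their RNA was pooled is not given in the sources used here. Since the transgene acts in smooth muscle, leukocytes in either genotype are not its target and reach the library only as part of the peeled muscle layer. The description field of the Dnmt1-WT sample names the mutant genotype against its own title and genotype label, which were followed. The Dnmt1 mRNA is outside the reach of small RNA libraries, and the genotype labels were not checked against it. All 8 listed smooth muscle miRNAs with a mean of at least 10 were lower in the library labelled Dnmt1-KO.

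With 1 library for each genotype, every comparison is between 2 libraries and has no replicate check. Intervals are 95% and cover counting error only, since reads counted without molecular identifiers can be copies of one molecule and the spread between animals is not measured. The values are read counts multiplied by a factor for each library, where 1 unit is close to 1 read. They correspond to 5725543 reads in Dnmt1-WT and 4767987 in Dnmt1-KO, and a miRNA at 3 reads has a share of 5.24e-05% in Dnmt1-WT and 6.29e-05% in Dnmt1-KO. In bulk tissue, more cells of a type and more RNA in each cell cannot be told apart. The smooth muscle miRNA miR-143-3p was the most abundant entry, at 1777100 and 1232984, which fits the labelled tissue.

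A miRNA gene is transcribed as a hairpin, which is cut into a 5p and a 3p arm, and the arm loaded into an Argonaute protein pairs with its targets mainly through the seed, bases 2 to 8. miR-142 is found across the haematopoietic lineages and is among the most abundant miRNAs of leukocytes. miR-223 marks the myeloid lineage, in granulocytes and monocytes, and is also abundant in platelets. miR-150 is a miRNA of mature B and T lymphocytes that restrains Myb, and miR-342 lies within Evl, an actin regulator that is expressed in leukocytes as well as in other cells.

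Mature sequences are shown for both arms of miR-142a, miR-223 and miR-342, as given by RefSeq on GRCm38.p6, in which 7 of the 8 members were matched, all but miR-150-5p. Each reads 5′ to 3′ with the seed in capitals.

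mmu-miR-142a-5p: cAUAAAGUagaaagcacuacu

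mmu-miR-142a-3p: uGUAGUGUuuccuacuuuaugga

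mmu-miR-223-3p: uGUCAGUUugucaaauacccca

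mmu-miR-223-5p: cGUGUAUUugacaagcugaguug

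mmu-miR-342-3p: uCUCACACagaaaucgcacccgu

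mmu-miR-342-5p: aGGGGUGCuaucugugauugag

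No seed is shared between these products. None of them shares its seed with another of the 1679 mature names in the RefSeq table, of which 918 matched the 1080 mature entries of the deposited table.

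Because the balance of the miR-142a arms is compared further on, its hairpin is shown with both mature arms in capitals. It lies at chr11:87756864-87756927 on the plus strand.

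miR-142a hairpin: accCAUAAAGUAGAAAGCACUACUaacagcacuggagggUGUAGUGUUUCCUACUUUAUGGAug

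On GENCODE M21 (GRCm38) this hairpin is in an intron of the noncoding RNA Mir142hg, whose gene spans chr11:87755577-87757270 on the same strand. The antisense gene Mir142b spans chr11:87756841-87756955 and covers it on the minus strand. Its product mmu-miR-142b is shown to set it apart from miR-142a.

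mmu-miR-142b: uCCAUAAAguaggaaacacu

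The 20 bases of miR-142b are the reverse complement of a stretch within miR-142a-3p that starts at its base 4, so the products differ in strand and not in position. Mir223 lies at chrX:96242817-96242926 on the plus strand, in an exon of the noncoding gene F630028O10Rik. Mir342 lies at chr12:108658620-108658718 on the plus strand in an intron of Evl. Mir150 lies at chr7:45121757-45121821 on the plus strand and overlaps no other annotated gene. The members thus come from 4 chromosomes and share no transcript, other than the arms of each hairpin.

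The comparison of the genotypes asked which of these miRNAs differed and by how much. Of the 8 members, 7 were higher in Dnmt1-KO and 1 was lower. The 7 members averaging 10 or more included 6 that were higher, beside 51.6% of all 543 entries with that average. For the same 6 the interval of the KO/WT ratio lay above 1, beside 31.7% of those entries, and for 3 it lay above 2, beside 5.89%. By the ratio of both arms summed, the pan-leukocyte miRNA miR-142a came first (4.50), the myeloid miR-223 next (2.61), the lymphocyte miR-150 after it (1.73), and miR-342 last (1.19). By units gained the order differed, as miR-342 came after miR-142a and miR-223 was last. Together the members rose from 5859 to 9832 deposited units, a ratio of 1.68 (1.62 to 1.73), or 2.03 with library totals set equal. Their share of the reads was 0.102% in Dnmt1-WT (Wilson interval 0.0994 to 0.105%) and 0.207% in Dnmt1-KO (0.203 to 0.211%).

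**Figure D1:**
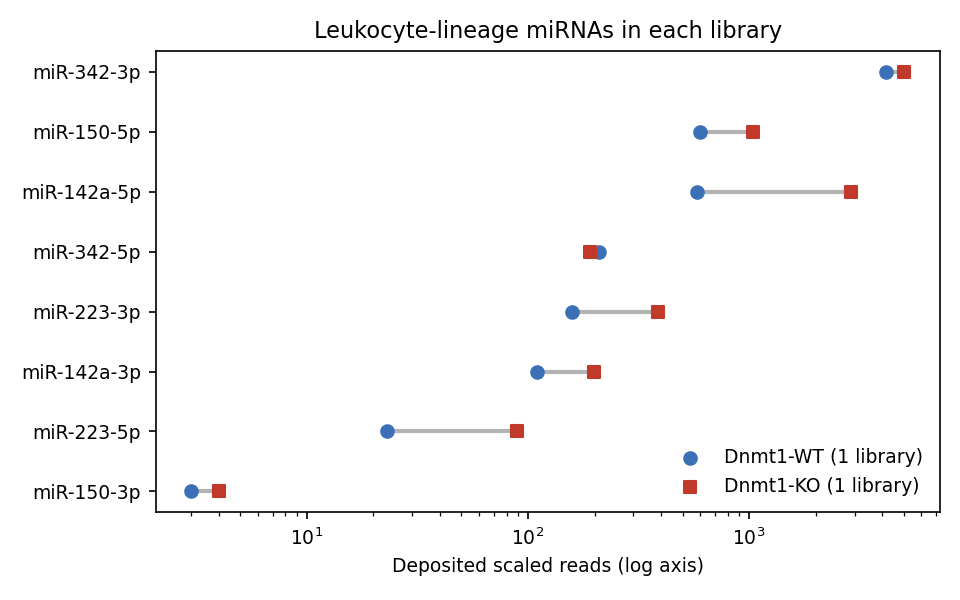
Deposited scaled reads (log axis) of the 8 leukocyte-lineage miRNAs in the single Dnmt1-WT library (circles) and the single Dnmt1-KO library (squares), joined by a line for each miRNA. The longest line is that of miR-142a-5p, from 578.6 to 2898, while the symbols of miR-342-5p nearly coincide at 208.6 and 190.5.

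mmu-miR-142a-5p was at 578.6 in Dnmt1-WT and 2898 in Dnmt1-KO, a ratio of 5.01 (4.58 to 5.49). It moved from rank 163 to rank 84 among mature miRNAs. Its KO/WT ratio was the 3rd highest among the 313 entries that were above 0 in both libraries and had a mean of at least 100. The other arm of the hairpin, mmu-miR-142a-3p, was at 109.3 and 199.4, a ratio of 1.82 (1.44 to 2.33), and moved from rank 296 to rank 250. Both arms were higher in Dnmt1-KO, but the 5p arm by a larger factor.

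mmu-miR-223-3p, the abundant arm of the myeloid miRNA, was at 158.5 in Dnmt1-WT and 385.9 in Dnmt1-KO, a ratio of 2.43 (2.02 to 2.95). mmu-miR-223-5p was at 23.1 and 88.8, a ratio of 3.84 (2.41 to 6.38). The arms of this hairpin moved the same way and their intervals overlap. The 3p arm ranked 12th by ratio among the 313 abundant entries.

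mmu-miR-150-5p was at 602.7 and 1042, a ratio of 1.73 (1.56 to 1.91), and ranked 30th. Its interval lies below 2. mmu-miR-150-3p was at 3 and 4, near the floor of 3 reads in both libraries, and its ratio of 1.33 carried an interval from 0.224 to 9.05. No difference of the 3p arm was detectable at this depth.

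mmu-miR-342-3p was the most abundant member of both libraries, at 4175 and 5024, and had a ratio of 1.20 (1.15 to 1.25). It ranked 102nd by ratio, inside the bulk of the abundant entries. mmu-miR-342-5p was at 208.6 and 190.5, a ratio of 0.913 (0.746 to 1.12) whose interval includes 1. It was the one member below 1 on the deposited scale, and it was above 1 when library totals were set equal.

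The order of the members changed between the genotypes. In Dnmt1-WT, miR-342-3p was followed by miR-150-5p and miR-142a-5p, which were at nearly the same level (ratio 1.04, 0.928 to 1.17). In Dnmt1-KO, miR-142a-5p took the second place, 2.78 times (2.59 to 2.99) above miR-150-5p. miR-342-5p stood above miR-223-3p in Dnmt1-WT by 1.32 times (1.06 to 1.63). In Dnmt1-KO it had passed below miR-223-3p, and its level could not be told from that of miR-142a-3p (ratio 1.05, 0.855 to 1.28). All other neighbours in either order were apart by more than counting error.

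Against a threshold of 2-fold on the deposited scale, 2 of the 6 members averaging 100 or more were higher in Dnmt1-KO, namely miR-142a-5p and miR-223-3p. Of all 316 entries with that mean, 6.33% were at least 2-fold higher and 8.86% were at least 2-fold lower. The 316 include entries at 0 in Dnmt1-WT, which count as 2-fold higher and are not among the 313 above 0 in both libraries. None of the 6 members was 2-fold lower. With a mean of at least 10, 3 of 7 members were at least 2-fold higher, miR-223-5p being added, where 11.4% of all 543 entries were higher and 9.94% lower. Setting library totals equal brought miR-142a-3p (2.20) and miR-150-5p (2.09) past 2-fold, for a count of 4 of 6, and the share of all entries then rose to 13.0%.

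**Figure D2:**
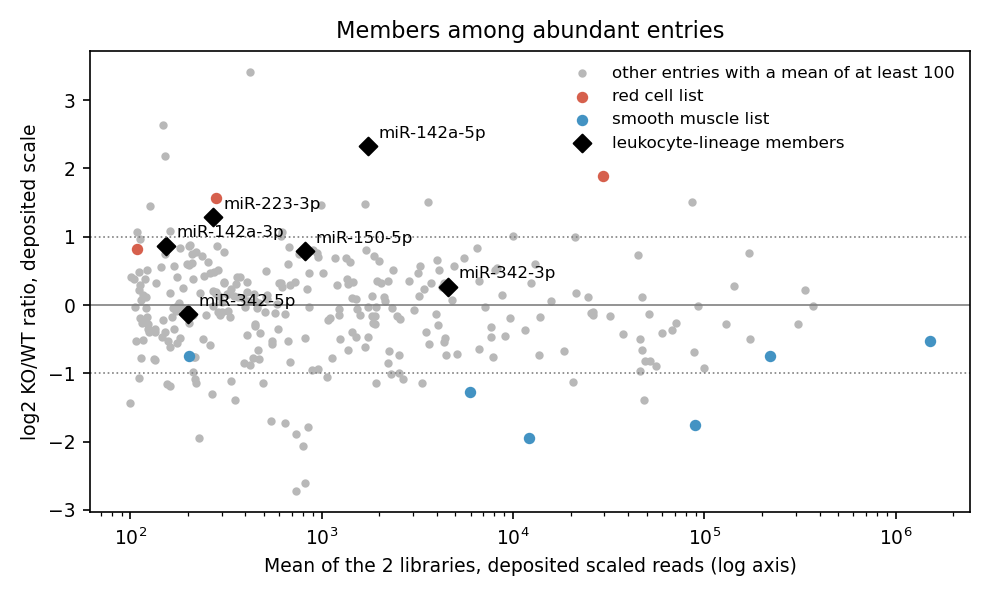
The log2 KO/WT ratio on the deposited scale against the mean of the 2 libraries (log axis) for entries above 0 in both with a mean of at least 100, with the members as diamonds and the red cell and smooth muscle lists in colour. Dotted lines mark 2-fold, miR-142a-5p stands at 2.32, and miR-342-3p lies inside the bulk at 0.27.

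**Figure D3:**
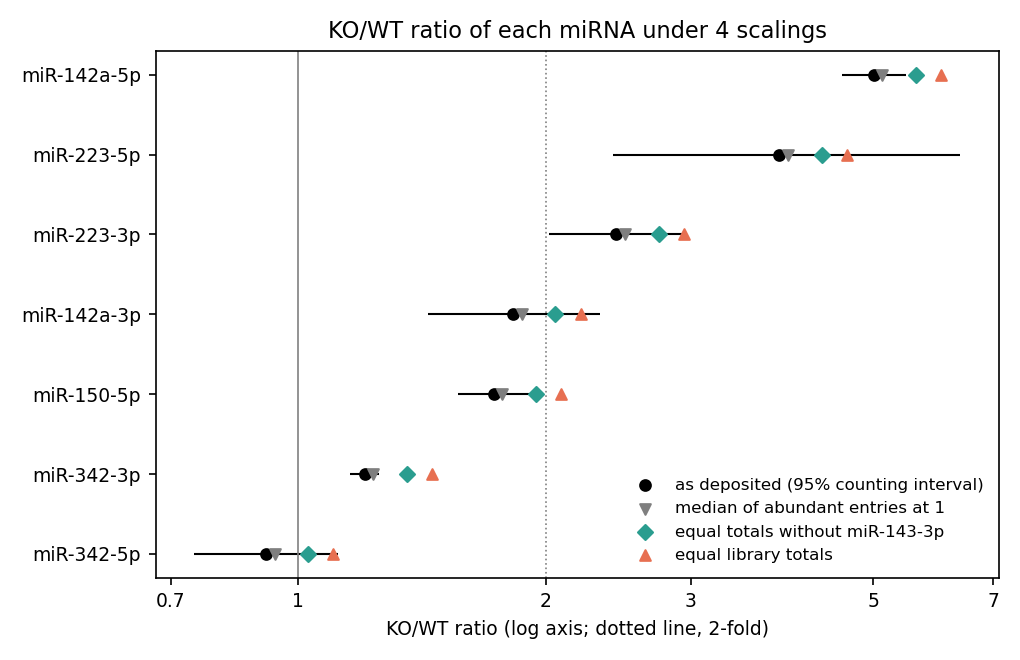
The KO/WT ratio (log axis) of the 7 members averaging 10 or more under 4 scalings, with the 95% counting interval drawn for the deposited scale. Each scaling multiplies all ratios by 1 factor, and with equal totals miR-342-5p crosses 1, from 0.913 to 1.10.

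Ratios depend on the scaling, whereas the ratio of one member to another within a library does not. The abundant arms of the 4 hairpins were therefore compared in all 6 pairs. miR-142a-5p per miR-342-3p rose from 0.139 in Dnmt1-WT to 0.577 in Dnmt1-KO, by a factor of 4.16 (3.77 to 4.60). miR-142a-5p per miR-150-5p rose from 0.960 to 2.78, by a factor of 2.90 (2.53 to 3.32). The pan-leukocyte product thus gained on the lymphocyte miR-150-5p and on miR-342-3p.

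It also gained on the myeloid one, since miR-142a-5p per miR-223-3p rose from 3.65 to 7.51, by a factor of 2.06 (1.66 to 2.53). miR-223-3p per miR-150-5p rose from 0.263 to 0.370, by a factor of 1.41 (1.14 to 1.75). For miR-223-3p per miR-342-3p the factor was 2.02 (1.67 to 2.46). miR-150-5p and miR-342-3p did not move alike either, because their ratio rose by a factor of 1.44 (1.29 to 1.60). All 6 intervals lie above 1 and none was adjusted for the number of pairs.

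The 3p arm of miR-142a gave another order. Its ratio of 1.82 lies between those of miR-223-3p and miR-150-5p, and its interval overlaps both. How far miR-142a stood above the other miRNAs therefore rested on the 5p arm.

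The make-up of the pool followed. miR-342 made up 74.8% of the summed members in Dnmt1-WT (73.7 to 75.9%) and 53.0% in Dnmt1-KO (52.0 to 54.0%). The share of miR-142a went from 11.7% (10.9 to 12.6%) to 31.5% (30.6 to 32.4%). miR-223 went from 3.10% (2.68 to 3.57%) to 4.83% (4.42 to 5.27%), and miR-150 stayed at 10.3% (9.58 to 11.1%) and 10.6% (10.05 to 11.3%), with intervals that overlap.

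Of the 3974 units that the pool gained on the deposited scale, miR-142a gave 60.6%, miR-342 20.9%, miR-150 11.1% and miR-223 7.38%. These shares of the gain depend on the scaling and were not computed under the other scalings. The large share of miR-342 in this gain comes with its high level and not with its ratio, 1.19 for both arms together (1.14 to 1.24). Without miR-342 the members rose from 1475 to 4618, a ratio of 3.13 (2.95 to 3.32). Both arms together gave a ratio of 4.50 (4.14 to 4.90) for miR-142a, 2.61 (2.20 to 3.12) for miR-223 and 1.73 (1.56 to 1.91) for miR-150.

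**Figure D4:**
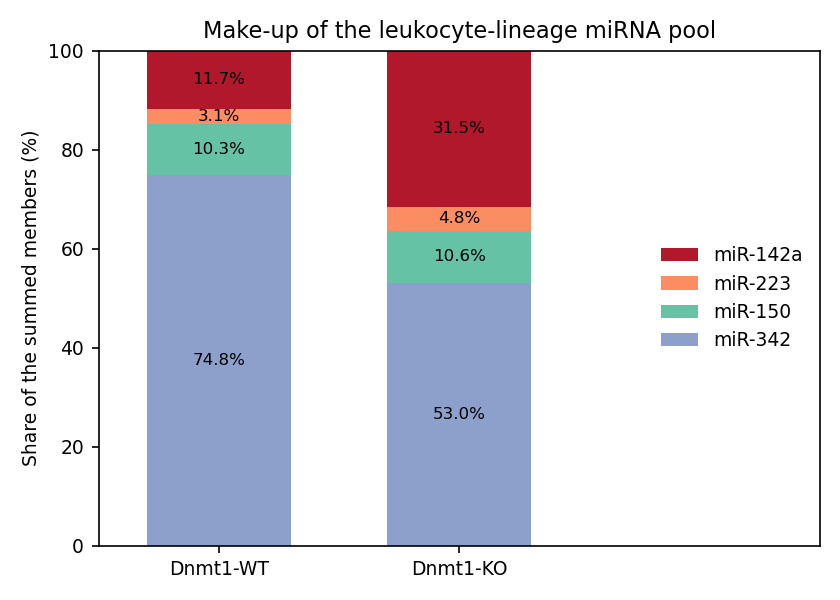
Share of each miRNA, both arms summed, in the total of the 8 members within each library (percent). miR-142a grows from 11.7% in Dnmt1-WT to 31.5% in Dnmt1-KO, miR-342 shrinks from 74.8% to 53.0%, and miR-150 is at 10.3% and 10.6%.

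The arm balance of miR-142a was then compared, since it too is a quantity within a library. The 5p arm was the major product in both genotypes. It made up 84.1% of the hairpin's reads in Dnmt1-WT (81.2 to 86.7%) and 93.6% in Dnmt1-KO (92.6 to 94.4%), with intervals that do not overlap. There were 5.29 reads of 5p for each read of 3p in Dnmt1-WT and 14.5 in Dnmt1-KO, so that the arm ratio rose by a factor of 2.75 (2.12 to 3.54). The change came with 2319 further units of the 5p arm against 90.1 of the 3p arm.

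Other hairpins show how far an arm ratio differed between these libraries. Over the 91 hairpins whose arms each averaged 50 or more, the log2 change of the 5p/3p ratio had a median of -0.08 and quartiles of -0.57 and 0.40. The change of miR-142a, 1.46, was the highest of the 91 toward 5p, and 5th by size in either direction. With both arms averaging only 10 or more it was 6th of 152 toward 5p, and 13th by size in either direction. A change of at least 1 was seen in 17 of the 91, 5 of them toward 5p. Those beyond miR-142a in size were miR-125a, miR-490, miR-376b and miR-671, and all 4 moved toward 3p, from -1.49 to -1.69.

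miR-223 was a 3p-dominant hairpin, with a 5p share of 12.7% in Dnmt1-WT (8.62 to 18.3%) and 18.7% in Dnmt1-KO (15.5 to 22.4%). Its arm ratio changed by a factor of 1.58 toward 5p, and the interval of 0.948 to 2.72 includes 1. miR-342 was also 3p-dominant, with a 5p share of 4.76% (4.17 to 5.43%) and 3.65% (3.18 to 4.20%), a factor of 0.759 (0.617 to 0.932) that goes toward 3p. miR-150 gave nearly all of its reads from 5p, 99.5% and 99.6%, and its change could not be measured on so few 3p reads. The shift toward 5p in miR-142a was therefore not seen in miR-342, and was not distinguishable from no change in miR-223.

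**Figure D5:**
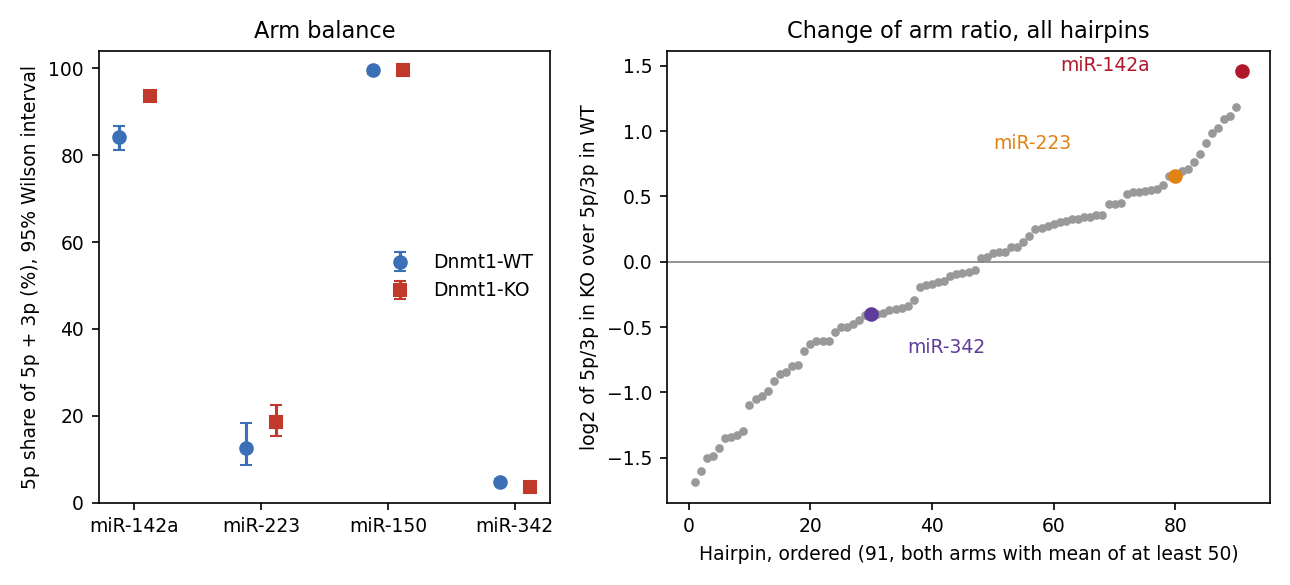
Left, the 5p share of each hairpin's reads in Dnmt1-WT (circles) and Dnmt1-KO (squares), in percent with 95% Wilson intervals. Right, the log2 change of the 5p/3p ratio for the 91 hairpins whose arms each averaged 50 or more, in order, where miR-142a is at 1.46, miR-223 at 0.66 and miR-342 at -0.40.

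The entries with KO/WT ratios nearest to each member were looked up among those with a mean of at least 100, with the difference of log2 ratios over the 2 libraries as the measure of likeness. With a pair of libraries this ranks entries by a single number. For miR-142a-5p these were miR-148a-5p (ratio 4.52), miR-1943-5p (6.19) and miR-486a-5p (3.71), the last of which is abundant in red cells. For miR-223-3p they were miR-679-5p (2.72), miR-34a-5p (2.75) and miR-214-3p (2.78). miR-148a-5p (55.2 and 249.3) and miR-1943-5p (41.1 and 254.3) reached the mean of 100 only through Dnmt1-KO. So did miR-679-5p, at 68.2 and 185.5, and no likeness is drawn from these entries.

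For miR-150-5p the nearest were miR-542-3p, miR-125a-3p and miR-221-3p, from 1.71 to 1.75. miR-142a-3p lay beside miR-323-3p, miR-296-5p and miR-184-3p, from 1.82 to 1.83. miR-342-3p lay beside miR-329-5p, miR-423-5p and let-7a-5p, from 1.20 to 1.21. None of the entries nearest to miR-223-3p, miR-150-5p, miR-142a-3p or miR-342-3p was another member or on the leukocyte lists.

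Other leukocyte miRNAs were taken from lists of gene names. miR-511, which lies in the macrophage mannose receptor gene Mrc1, was listed with miR-223 as myeloid. miR-511-3p was at 23.1 in Dnmt1-WT and 72.8 in Dnmt1-KO, a ratio of 3.15 (1.95 to 5.29), and miR-511-5p was at 2 and 15, a ratio of 7.50 (1.73 to 67.2). The myeloid list had 3 entries with a mean of at least 10, which were miR-223-3p, miR-223-5p and miR-511-3p, while miR-511-5p fell below it. Both arms of miR-223 are members, so only miR-511-3p is new in this list's median. All 3 were higher, with a median log2((KO + 1)/(WT + 1)) of 1.61, beside 0.06 over the 534 mature entries with that mean. Of those 534 entries, 279 were higher and 252 lower. The pan-leukocyte list (both arms of miR-142a) and the lymphocyte list (miR-150 together with miR-342) hold no miRNA beyond the members and add no value to those above.

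The list of miRNAs induced on leukocyte activation had 9 entries, 5 of them with a mean of at least 10, and these 5 were all higher, with a median of 0.49 beside the 0.06 over all mature entries. miR-146b-5p, a restraint on NF-kB signalling, had a ratio of 2.85 (2.70 to 3.004), whereas the related miR-146a-5p had 1.26 (1.22 to 1.29). miR-21a-5p had 2.01 (1.95 to 2.07). In Dnmt1-WT, miR-146a-5p (11058) and miR-21a-5p (6684) stood far above miR-142a-5p (578.6), and which cells gave them was not tested. miR-155-5p, which is induced in activated lymphocytes and macrophages, was at 226.6 and 318.1, a ratio of 1.40 (1.18 to 1.67). miR-142a-5p per miR-155-5p rose by a factor of 3.57 (2.93 to 4.34), but per miR-511-3p the factor of 1.59 had an interval that includes 1 (0.939 to 2.59).

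miRNAs of other cells that the tissue or its blood could hold moved as well. All 5 red cell entries with a mean of at least 10 were higher, of which miR-144-3p reached that mean only through Dnmt1-KO, at 2 and 20.9. Their summed level was 12823 in Dnmt1-WT and 47355 in Dnmt1-KO. Nearly all of this sum was miR-486a-5p, at 12592 and 46756, far above miR-451a, so the sum is not read as a red cell level. Which cells gave miR-486a-5p was not tested. miR-451a, which defines red cells, was at 141.4 and 420.8, a ratio of 2.98 (2.45 to 3.63). miR-122-5p, the abundant liver miRNA, was at 72.2 and 769.8, a ratio of 10.7 (8.37 to 13.8). The red cell and liver entries were thus higher in the same library as the leukocyte members, and their part in the members' values was not tested.

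Set against miR-451a, the members fell into different positions. miR-142a-5p per miR-451a rose from 4.09 to 6.89, by a factor of 1.68 (1.35 to 2.08). For miR-223-3p the factor was 0.818 with an interval that includes 1 (0.622 to 1.08). miR-142a-3p (0.613, 0.449 to 0.839), miR-150-5p (0.581, 0.465 to 0.724) and miR-342-3p (0.404, 0.330 to 0.493) rose less than miR-451a. Only miR-142a-5p of the 5 products compared rose more than the red cell miRNA.

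The endothelial miR-126a was listed with 2 arms, both higher, at a ratio of 1.27 (1.23 to 1.32) for miR-126a-3p and 1.62 (1.55 to 1.68) for miR-126a-5p. Among 14 epithelial entries with a mean of at least 10, 10 were higher and 4 lower, and miR-200a-5p and miR-194-2-3p, both higher, reached that mean only through Dnmt1-KO. The summed level of all 16 listed entries was 14907 and 18644, and most of the difference was in miR-192-5p, at 4619 and 8272. The defining miR-200c-3p had a ratio of 1.65 (1.20 to 2.28), whereas miR-194-5p (0.958), miR-215-5p (0.977), miR-200a-3p (0.928) and miR-429-3p (0.886) were below 1 with intervals that include it, and above 1 with equal totals. Among 9 neural entries 4 were higher and 5 lower, with a median of -0.02 that became positive under each of the other 3 scalings. All 8 smooth muscle entries with a mean of at least 10 were lower, with a median of -1.14, and the summed level of the 10 listed entries went from 2217800 to 1446714. The part of these cell types in the members' ratios was not tested.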

How the data were processed

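Small RNA from jejunal tunica muscularis was sequenced from Illumina TruSeq libraries, and a commercial provider aligned and annotated the reads on GRCm38/mm10. The submitters' processing notes name Bowtie. The miRNA database release and the treatment of reads matching several miRNAs are not given in the sources used here. The deposited values have 1 decimal and behave as read counts that each library's own factor has scaled. Between 20 and 300, 88.6% of the Dnmt1-WT and 91.1% of the Dnmt1-KO values were within 0.06 of a whole multiple of a step of 1.00286 and 0.997209. Deposited totals were 5741906 and 4754677. Values divided by the step gave the reads behind each interval. For the members, 7 of 8 values in Dnmt1-WT and 5 of 8 in Dnmt1-KO were whole within that tolerance, and the others may include divided reads. The authors' fold change column was not used.

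The 95% interval of a KO/WT ratio is the exact (Clopper-Pearson) interval of the KO share of both libraries' reads, on the deposited scale. Shares carry Wilson intervals, and ratios of ratios the exact conditional odds ratio interval (scipy 1.17.1, Python 3.11.15). The functions were tested on simulated data. No p-value was computed. Entries named in the text were all mature products of the member genes, the 3 entries nearest to each of 5 members by log2 ratio at a mean of at least 100, and list entries with a mean of at least 1000 or defining a cell type, of which a part is printed. The other hairpins named in the arm comparison, miR-511-5p, miR-144-3p, miR-200a-5p, miR-200a-3p, miR-194-2-3p and miR-429-3p were named after their values were seen. Members, lists and tests were chosen with earlier results of these data known.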

Additional observations from a re-analysis of the deposited data

How the results depend on the processing

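Setting library totals equal multiplies every ratio by 1.21, leaving out miR-143-3p from the totals by 1.13, and centring on the median of abundant entries by 1.024. With equal totals the ratios became 6.05 for miR-142a-5p, 2.09 for miR-150-5p and 1.45 for miR-342-3p, and without miR-143-3p they became 5.64, 1.95 and 1.35. The other listed members stayed within their intervals. miR-342-5p turned from 0.913 to 1.10 and 1.03 under these 2 scalings. The count of members at least 2-fold higher went from 2 to 4 with equal totals, and stayed within 1.5 times under the pseudocounts, the other scalings and the lower minimum means. The arm change of miR-142a was 2.81 with a pseudocount of 10. Its place by size among hairpins went from 5 to 13 with both arms at a mean of at least 10, where 152 hairpins were compared and it was 6th toward 5p, and was 5 of 62 at a mean of at least 100. The neural list turned from -0.02 to 0.25 with equal totals, 0.15 without miR-143-3p and 0.0124 with the centred median. The other lists kept their sign under every alternative. No hairpin-named miR-142 entry was listed, so adding one could not be run. Depth limits miR-150-3p, at 3 and 4 reads, and the arm ratio of miR-223.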
